A study of Mus musculus with 743 samples.

Results

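The D-type cyclins (Ccnd1, Ccnd2, Ccnd3), the cyclin-dependent kinases Cdk2, Cdk4 and Cdk6 and the Rb family (Rb1, Rbl1, Rbl2) were followed in single Schwann cells (SCs) of the mouse sciatic nerve at postnatal day 1. These 9 genes were listed by name, among 25700 genes in the count table. SCs are the glia of peripheral nerves, which sort axons and wrap the larger ones in myelin. All cells came from 1 group of mice on the C57BL/6J background, male and female, carrying a Cre transgene that is active in the SC lineage, the eYFP reporter that Cre switches on in the Rosa26 locus, and a DsRed transgene under the beta-actin promoter. eYFP therefore marks cells that belong to this lineage or descend from it. Single eYFP-positive cells were sorted into 743 wells of 2 plates and read with Smart-seq2, a protocol that covers whole transcripts and has no molecular identifiers. Each plate held cells from a separate pool of mice and stands for 1 replicate (n = 2), and differences between single mice cannot be seen.

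D-type cyclins are made when growth signals reach a cell, and they bind and switch on Cdk4 and Cdk6. The active kinases phosphorylate the proteins of the Rb family (pRb from Rb1, p107 from Rbl1, p130 from Rbl2), which otherwise hold E2F transcription factors and keep genes of DNA replication off, and Cdk2 with cyclin E or cyclin A carries the phosphorylation further. Inhibitors of the INK4 group bind Cdk4 and Cdk6, and those of the Cip/Kip group (p21, p27 and p57) bind cyclin-Cdk complexes more broadly. Immature SCs of perinatal nerves divide, and promyelinating SCs, which have taken up 1:1 contact with a large axon, leave the cell cycle before they myelinate.

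Cells with at least 1500 detected genes were kept, which gave 287 cells on plate 1 and 334 on plate 2. A cell was called cycling where Mki67 and Top2a together reached 50 CPM (reads of a gene per 1000000 reads of the cell), promyelinating where it was not cycling and Ncmap reached 50 CPM, and other otherwise. This gave 53 cycling, 59 promyelinating and 175 other cells on plate 1 and 57, 60 and 217 on plate 2. Mki67, Top2a and Ncmap form the classes and are no result. The classes are ranges of a marker level, and 9 cells lay between 25 and 100 CPM at the cycling limit and 9 at the promyelinating one. Dividing cells with few reads of Mki67 and Top2a, which may include cells early in the cycle, fall outside the cycling class. Reads summed over a class and plate came to between 45073128 and 172878954. The 7 proliferation markers summed to 4555 ± 307 CPM (SD, n = 2 plates, as for all levels and shares below) in cycling cells against 35.8 ± 8.84 in promyelinating and 88.8 ± 2.19 in other cells. For log2 differences, ± gives the SE of the fit. The 10 myelination markers summed to 17871 ± 13.4 CPM in promyelinating, 3932 ± 206 in cycling and 5058 ± 618 in other cells. The SC markers Sox10, Erbb3 and S100b had reads in every class and plate, with Sox10, a transcription factor of the lineage, at 156 ± 9.33 CPM in cycling, 222 ± 8.58 in promyelinating and 201 ± 4.77 in other cells. In the marker lists of non-SC types, Pdgfra, Cdh5, Kdr, Ptprc, Tyrobp, Acta2 and Rgs5 were at 0 reads in all 3 classes, and others had reads. Pdgfrb, a mural marker, was at 0 reads in cycling cells, 43.7 and 13.8 CPM in promyelinating and 20.7 and 37.8 CPM in other cells on plates 1 and 2, and was called lower in cycling cells against both (edgeR adjusted p = 0.00338 and 0.00976). Dcn, a fibroblast marker, was at 0 and 0.577 CPM in cycling, 26.6 and 19.01 CPM in promyelinating and 36.7 and 10.46 CPM in other cells. Csf1r, an immune marker, was between 2.77 and 19.3 CPM in every class and plate, and Pecam1, an endothelial marker, was at 2.86 and 1.01 CPM in other cells and at 0 reads elsewhere. Cspg4, the other mural marker with reads, went in the opposite direction to Pdgfrb and was not called. It was at 36.7 and 24.8 CPM in cycling, 13.2 and 21.4 CPM in promyelinating and 17.5 and 15.6 CPM in other cells. The part of cells with these markers in the differences given below was not tested. The summed levels of the fibroblast, endothelial, immune and mural lists each stayed between 0 and 56.8 CPM on either plate. The 8 dissociation response genes, immediate early and heat shock genes such as Fos, Egr1 and Hspa1a, summed to 2311 ± 151 CPM in promyelinating cells against 5943 ± 1721 in cycling and 6111 ± 381 in other cells, and their part in the differences given below was not tested.

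Per kilobase of exon, which allows genes to be compared, Ccnd1 stood highest over all kept cells at 209 ± 7.91 CPM per kb, followed by Cdk4 at 170.2 ± 13.2. Cdk6 followed at 82.2 ± 4.73, Ccnd2 at 61.0 ± 10.4 and Ccnd3 at 12.1 ± 1.89 CPM per kb. The remaining members were low: Cdk2 at 2.90 ± 0.667, Rb1 at 2.67 ± 0.422, Rbl2 at 2.41 ± 0.217 and Rbl1 at 1.27 ± 0.495 CPM per kb. Among these low genes Cdk2, Rb1 and Rbl2 were within the spread between plates of their neighbours in the order, while the 5 highest members were each further apart than that spread. The order rests on the length correction, since by CPM alone Cdk6 stood highest at 1150 ± 66.1 and Ccnd1 followed at 986 ± 37.2. The ratio of the higher to the lower plate was at most 1.39 for every member except Rbl1, where it was 1.76. A read of Ccnd1 was found in 578 of the 621 cells (93.1%), of Cdk6 in 569, of Cdk4 in 560 and of Ccnd2 in 461, against 46 cells (7.41%) for Rbl1.

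Ccnd2, which encodes cyclin D2, was the only D-type cyclin called between classes in the fit without a block. Its level was 128 CPM on plate 1 and 202 CPM on plate 2 in cycling cells, 726 and 576 CPM in other cells, and 859 and 526 CPM in promyelinating cells. Both plates of the cycling class lay below all 4 sums of the other classes, while promyelinating and other cells overlapped. Most cycling cells held transcripts of the G2 and mitotic phases, as given below, and the part of cycle phase in this difference was not tested. The fitted level was 3.63-fold lower in cycling than in other cells (log2 fold change -1.86 ± 0.31 SE, edgeR quasi-likelihood adjusted p = 0.0333) and 4.07-fold lower than in promyelinating cells (-2.03 ± 0.31, adjusted p = 0.0073). Between promyelinating and other cells the difference was 0.17 ± 0.30 on the log2 scale (95% interval -0.52 to 0.85, adjusted p = 0.942). On plate 1 alone the log2 ratio of cycling to other cells was -2.51, and on plate 2 alone it was -1.51. The call against other cells was lost without the cycling sum of plate 1 (-1.60, adjusted p = 0.115) and without the other sum of plate 1 (-1.65, adjusted p = 0.0576), and held in the remaining 13 of 15 alternatives. The call against promyelinating cells held in all 15.

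Pdgfrb, as given above, was also lower in cycling cells, while Cspg4 of the same list was higher there. The part of cells with these markers was not tested. The lower level of Ccnd2 went with fewer cells that held a read of it. A read was found in 47.2% of cycling cells on plate 1 and 43.9% on plate 2, against 78.9% and 78.8% of other cells and 84.7% and 86.7% of promyelinating cells. With every cell thinned to 50000 reads the shares averaged 38.4% ± 2.70 in cycling, 70.3% ± 0.0376 in other and 80.4% ± 5.81 in promyelinating cells. The median cycling cell had 0 CPM of Ccnd2 on both plates, while the highest cycling cells reached 2463 and 3074 CPM, and 3 cells held 58.3% of the cycling reads of plate 1 and 42.7% of those of plate 2.

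Ccnd1, which encodes cyclin D1, was found in most cells of every class, and its values were lowest in cycling cells. Its level was 637 and 610.3 CPM in cycling cells on plates 1 and 2, 865 and 821 CPM in promyelinating cells, and 1172 and 1093 CPM in other cells, so that the 3 classes were in the same order on both plates without overlap. The difference between cycling and other cells was -0.73 ± 0.17 on the log2 scale (95% interval -1.11 to -0.35) and did not pass (adjusted p = 0.119). With the plate as a block it passed (-0.73, adjusted p = 0.0374), as it did with DESeq2, with limma and without a filter on low counts, 4 of 15 alternatives in all. The differences of -0.35 ± 0.17 between promyelinating and other cells and of -0.38 ± 0.17 between cycling and promyelinating cells did not pass (adjusted p = 0.494 and 0.247). The share of cells with a read of Ccnd1 lay between 86.0% and 96.7% in every class and plate.

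Ccnd3, which encodes cyclin D3, was the lowest of the family. Its level was 27.6 and 76.0 CPM in cycling cells, 113 and 87.7 CPM in other cells and 216 and 133 CPM in promyelinating cells. The promyelinating plates lay above all others and the cycling plates below, and the ratio between plates was largest in cycling cells. The log2 difference of cycling from promyelinating cells was -1.72 ± 0.49 (95% interval -2.85 to -0.59), which did not pass (adjusted p = 0.0911), and passed in 4 of 15 alternatives. A read of Ccnd3 was found in 67.8% and 60% of promyelinating cells, against 33.1% and 39.2% of other cells and 20.8% and 35.1% of cycling cells.

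**Figure D1:**
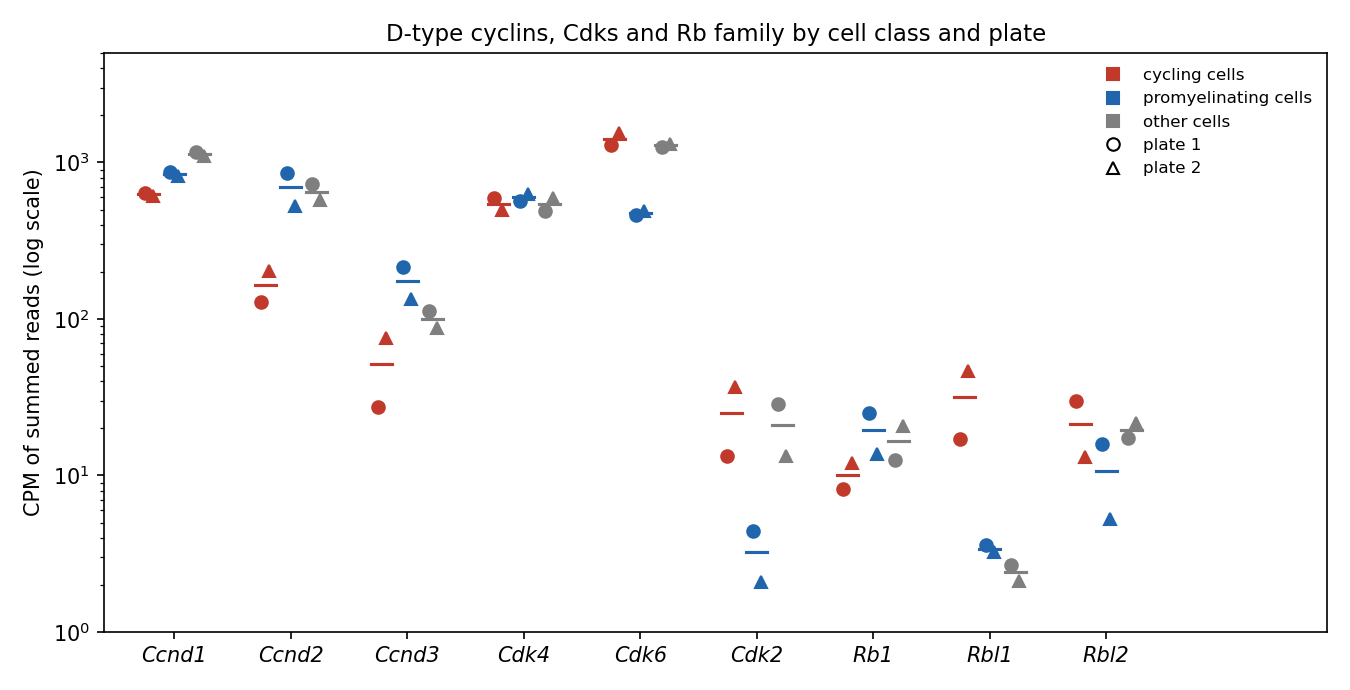
Level of each member in CPM of the summed reads (log scale) for cycling (red), promyelinating (blue) and other cells (grey). Circles are plate 1, triangles plate 2 and bars the mean of both. Ccnd2 sits at 128 and 202 CPM in cycling cells against at least 526 elsewhere, and Cdk6 sits at 461 and 489 CPM in promyelinating cells against at least 1257 elsewhere.

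Among the kinases, Cdk6 was lower in promyelinating cells, and no difference in Cdk4 passed. Cdk6 was at 461 and 489 CPM in promyelinating cells on plates 1 and 2, against 1257 and 1320.2 CPM in other cells and 1292 and 1542 CPM in cycling cells. The promyelinating plates lay below all 4 other sums. The fitted level was 2.57-fold lower in promyelinating than in other cells (log2 fold change -1.36 ± 0.16, adjusted p = 0.0048) and 3.09-fold higher in cycling than in promyelinating cells (1.63 ± 0.16, adjusted p = 0.000897). Both calls held in all 15 alternatives, where the adjusted p reached at most 0.0307 and 0.0072. Cycling and other cells differed by 0.27 ± 0.16 (95% interval -0.10 to 0.63, adjusted p = 0.628). The median promyelinating cell held 296 CPM on plate 1 and 368 CPM on plate 2, against 890 and 963 CPM in other cells. A read was found in 79.7% and 85.0% of promyelinating and 95.4% and 91.2% of other cells. The dissociation response genes were also lower in promyelinating cells, as given above, and their part was not tested.

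Cdk4, the main partner of D-type cyclins in many tissues, was at 592 and 493 CPM in cycling cells, 567 and 629.9 CPM in promyelinating cells and 488 and 593 CPM in other cells. All 3 classes overlapped. The 95% intervals of the log2 differences were -0.32 to 0.60 for cycling against other cells, -0.23 to 0.69 for promyelinating against other cells and -0.54 to 0.37 for cycling against promyelinating cells. Reads of Cdk4 were found in 85.1% to 98.3% of cells in each class and plate.

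Cdk2, which acts with cyclins E and A, was low and uneven. It was at 13.4 and 36.7 CPM in cycling cells, 28.6 and 13.4 CPM in other cells and 4.43 and 2.09 CPM in promyelinating cells. The promyelinating plates were the lowest, and cycling and other cells overlapped, with opposite directions on the plates (log2 ratio -1.10 on plate 1 and 1.46 on plate 2). The difference of promyelinating from other cells was -2.61 ± 0.91 (adjusted p = 0.303) and that of cycling from promyelinating cells 2.98 ± 0.92 (adjusted p = 0.113), and neither passed. The first passed in 1 of 15 alternatives (DESeq2, adjusted p = 0.0463) and the second in 3 of 15 (lowest adjusted p = 0.00693). A read was found in 30.2% and 47.4% of cycling cells, 20.6% and 18.4% of other cells and 6.78% and 13.3% of promyelinating cells.

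In cycling against other cells, 0 members were called higher and 1 lower (Ccnd2) out of 9, where 1.01% of the 13292 genes tested were called, 0.895% higher and 0.113% lower. With the plate as a block 2 members were called (Ccnd1, Ccnd2), beside 1.17% of genes. In promyelinating against other cells 0 members were called higher and 1 lower (Cdk6), where 1.79% of genes were called, 0.497% higher and 1.29% lower, and with the block it was again 1 member beside 2.22% of genes. In cycling against promyelinating cells 1 member was called higher (Cdk6) and 1 lower (Ccnd2), where 5.95% of genes were called, 3.83% higher and 2.12% lower, and with the block 2 members beside 6.66% of genes. The plates of the classes did not overlap for 5 of the 9 members in cycling against other cells (1 higher, 4 lower), beside 43.6% of all genes tested (14.9% higher, 28.7% lower). This held for 6 members in promyelinating against other cells (2 higher, 4 lower), beside 44.4% of genes (16.4% higher, 28.1% lower), and for 7 in cycling against promyelinating cells (3 higher, 4 lower), beside 47.8% (23.1% higher, 24.6% lower). The median log2 fold change over the 9 members was 0.14, 0.17 and -0.09, beside -0.07, -0.07 and 0.02 over all genes. The comparisons share their class sums, so their values are given side by side and not as independent results.

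**Figure D2:**
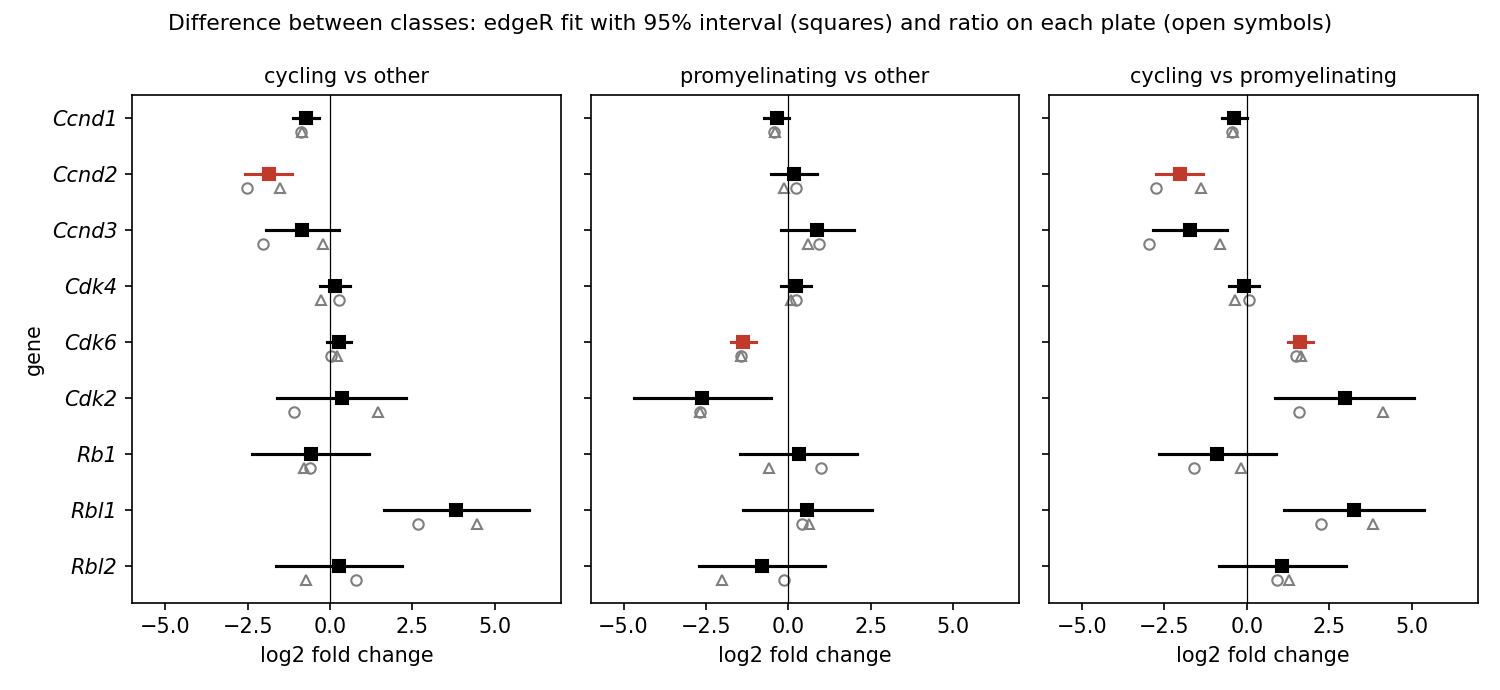
Log2 fold change of each member in the 3 comparisons of classes. Squares are the edgeR fit with its 95% interval, red where the adjusted p is under 0.05, and open circles and triangles are the ratios on plate 1 and plate 2. Only Ccnd2 (-1.86 and -2.03) and Cdk6 (-1.36 and 1.63) are red.

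The Rb family was low in every class. Rb1, which encodes pRb, was at 8.22 and 12.05 CPM in cycling cells, 25.01 and 13.7 CPM in promyelinating cells and 12.6 and 20.6 CPM in other cells. Rbl2, which encodes p130, was at 29.8 and 13.02, 15.9 and 5.30, and 17.4 and 21.6 CPM in the same order. Rb1 overlapped between promyelinating and other cells. Rbl2 overlapped between cycling and other cells and between cycling and promyelinating cells. No difference of these genes passed, with edgeR adjusted p between 0.515 and 0.973 over the 3 comparisons. The sums of these genes rest on few cells: in cycling cells of plate 1, 3 cells held 97.1% of the Rbl2 reads and 93.3% of the Rb1 reads. The sign of the Rbl2 difference between cycling and other cells changed in 3 of 15 alternatives, so no direction is given.

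Rbl1, which encodes p107 and is itself a known target gene of E2F factors, was highest in cycling cells on both plates. It was at 17.04 and 46.3 CPM there, against 3.57 and 3.23 CPM in promyelinating and 2.70 and 2.11 CPM in other cells, with no overlap. These sums also rest on few cells. In cycling cells 3 cells held 59.2% and 67.2% of the Rbl1 reads on plates 1 and 2. At most 3 cells held 93.7% to 100% of them in each promyelinating and other sum. The log2 difference from other cells was 3.83 ± 0.96 (95% interval 1.64 to 6.02), which did not pass (adjusted p = 0.170, and 0.000194 to 0.771 over the 15 alternatives, of which DESeq2 alone passed). The difference from promyelinating cells was 3.26 ± 0.93 (adjusted p = 0.0906), which passed in 3 of 15 alternatives. A read of Rbl1 was found in 32.1% and 26.3% of cycling cells, against 1.69% and 3.33% of promyelinating and 1.71% and 3.69% of other cells. After thinning to 50000 reads the shares were 23.99% ± 4.15 in cycling, 2.57% ± 1.24 in promyelinating and 1.79% ± 0.103 in other cells.

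Promoters, here 250 bases before to 50 bases after a start of transcription in RefSeq (GRCm38.p6), were at hand for 6 members: Ccnd3 (with 2 promoters), Cdk2, Cdk4, Cdk6, Rbl1 and Rbl2. The E2F-type word TTTNNCGC was searched on both strands, with no other motif. It was found in 3 of these 7 promoters (42.9%), beside 1698 of 32851 promoters of the same length (5.17%). Rbl1 held it 2 times, starting 18 and 8 bases before the start of transcription. Cdk2 held it 1 time on the opposite strand, starting 140 bases before, and Cdk6 1 time, starting 198 bases before. The 50 bases of these promoters that hold the word are shown because they are the member promoters in which it was found. Capitals mark the word, and each run is on the strand of its gene.
Rbl1 (chr2:157204535-157204584, minus strand): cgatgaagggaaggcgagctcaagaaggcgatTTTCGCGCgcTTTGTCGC
Cdk2 (chr10:128705163-128705212, minus strand): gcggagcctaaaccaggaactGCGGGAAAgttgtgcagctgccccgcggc
Cdk6 (chr5:3343674-3343723, plus strand): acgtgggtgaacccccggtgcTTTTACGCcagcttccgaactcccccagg
The runs lie upstream of the start that RefSeq gives, which for Cdk6 is inside the span of the gene in GENCODE, and a match is a description of the letters only. For the 12 genes of DNA replication described below, 11 had promoters in the table, and 6 of their 12 promoters (50%) held the word.

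The make-up of each family per kilobase of exon shows how its members were weighted within a class. Ccnd1 made up 85.1% ± 5.59 of the summed D-type cyclin level in cycling cells, 74.97% ± 2.17 in other cells and 66.2% ± 6.86 in promyelinating cells. Ccnd2 made up 11.2% ± 3.21, 21.5% ± 1.82 and 26.6% ± 5.44. The summed level of the family was 156 ± 5.55 CPM per kb in cycling cells, with both plates below the 272 ± 38.2 of promyelinating and 321 ± 25.2 of other cells. Cdk4 made up 62.1% ± 5.98 of Cdk4 and Cdk6 together in cycling cells, 64.2% ± 2.38 in other cells and 84.4% ± 0.432 in promyelinating cells. By CPM with no length correction Cdk4 made up 27.8% ± 5.10, 29.5% ± 2.15 and 55.7% ± 0.811 in the same order. Which of the pair was larger in cycling and other cells thus rests on the correction. On both scales the Cdk4 share was highest in promyelinating cells. Within the Rb family, Rbl1 made up 51.2% ± 23.04 in cycling, 11.98% ± 4.67 in promyelinating and 7.29% ± 2.83 in other cells. With 2 plates a class an exact permutation test could not go below p = 0.333, so no test is given for these shares.

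**Figure D3:**
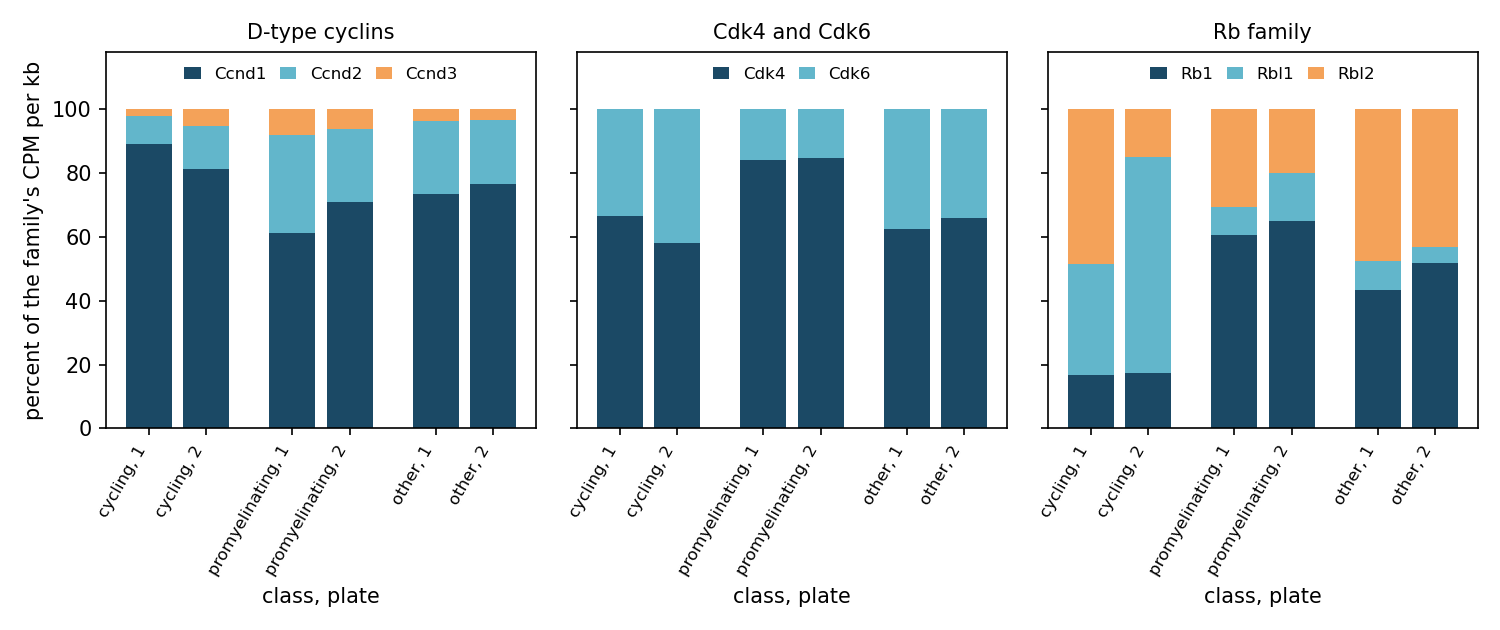
Share of each gene in the summed CPM per kilobase of exon of its family, in percent, for each class and plate (1 or 2). The Ccnd2 share is lowest in cycling cells (8.92% and 13.5%), the Cdk6 share lowest in promyelinating cells (15.9% and 15.3%), and the Rbl1 share differs between the cycling plates (34.9% and 67.4%).

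Combinations within single cells were counted after thinning to 50000 reads. All 3 D-type cyclins had a read in 47.0% ± 3.06 of promyelinating cells, 22.7% ± 4.68 of other cells and 14.6% ± 1.65 of cycling cells. Ccnd1 was the only D-type cyclin with a read in 51.9% and 28.1% of cycling cells, 18.9% and 17.7% of other cells and 11.9% and 6.90% of promyelinating cells. Ccnd2 was seldom found without Ccnd1, in 0% of cycling, 1.71% ± 0.0207 of promyelinating and 2.93% ± 1.51 of other cells. A D-type cyclin together with Cdk4 or Cdk6 had reads in 88.3% ± 5.73 of cycling, 94.9% ± 2.36 of promyelinating and 94.4% ± 0.0940 of other cells. No Rb family gene had a read in 60.8% ± 6.54 of cycling, 66.7% ± 0.806 of promyelinating and 75.9% ± 4.12 of other cells, and at these levels a missing read does not show a missing transcript.

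**Figure D4:**
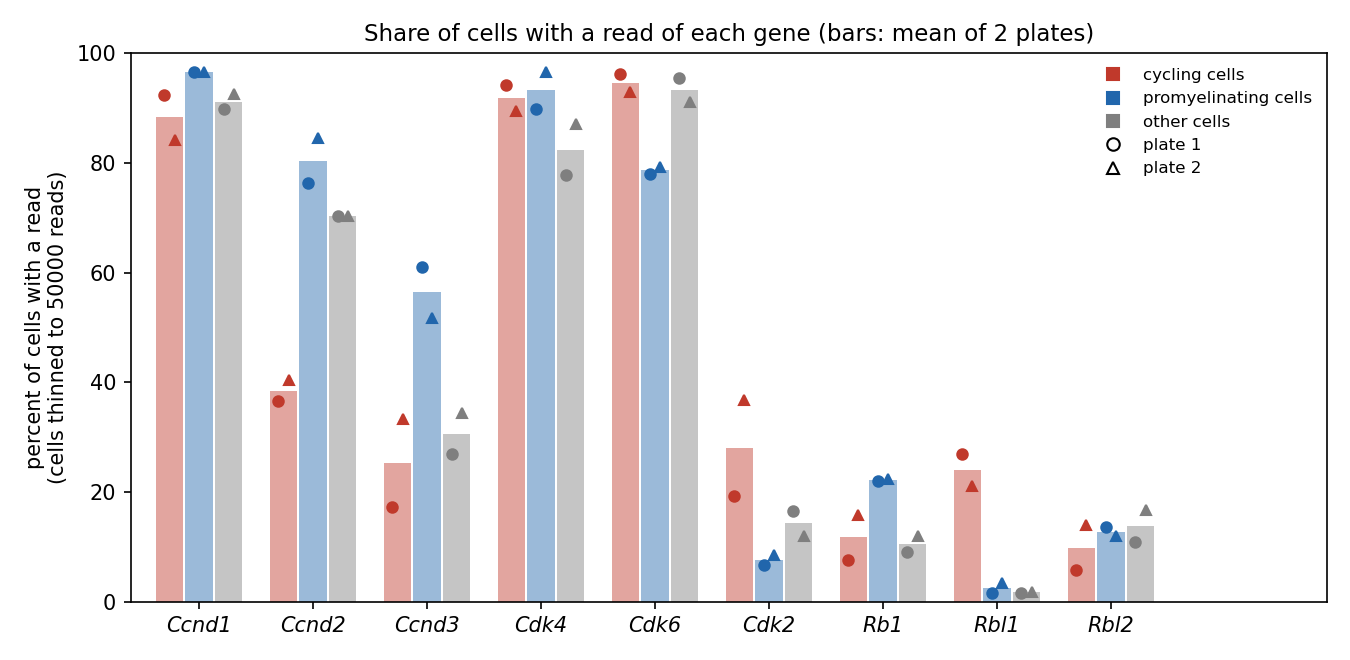
Percent of cells with at least 1 read of each member after thinning every cell to 50000 reads, by class. Bars are the mean of the 2 plates, circles plate 1 and triangles plate 2. Rbl1 stands at 23.99% in cycling cells against 2.57% and 1.79% elsewhere, and Ccnd2 at 38.4% in cycling cells against 80.4% and 70.3%.

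Most cycling cells also held transcripts of the G2 and mitotic phases. Split at 50 CPM of Ccnb1, Plk1 and Cdc20 together, which form the split and are no result, 47 cycling cells on each plate were above and 6 and 10 cells below, so the lower group is small. Ccnd2 was at 73.0 and 148 CPM above and 751 and 414 CPM below the split. Ccnd1 was at 557 and 567 CPM above and 1552 and 778 CPM below. Below the split these sums rest on few cells. There, 3 cells held 99.7% and 81.4% of the Ccnd2 reads and 85.1% and 65.5% of the Ccnd1 reads on plates 1 and 2. The median cell held 134 and 103 CPM of Ccnd2 below the split and 0 CPM above it on both plates. Both genes were lower above the split on each plate, by -2.28 ± 0.44 and -0.92 ± 0.30 on the log2 scale, and neither passed (adjusted p = 0.0917 and 0.167). None of the 9 members was called, beside 0% of 13303 genes tested in edgeR, where 2332 genes and 3 members had an unadjusted p under 0.05. The groups did not overlap for 5 members (2 higher, 3 lower), beside 39.4% of genes (31% higher, 8.36% lower). DESeq2 called 2362 genes and 2 members (Ccnd2 and Rbl2). Without the lower group of plate 1, edgeR called 2710 genes and Ccnd2 (-1.83), Cdk6 (-0.74) and Rbl2 (4.57), and without that of plate 2 it called 2725 genes and Ccnd1 (-1.32), Ccnd2 (-2.63) and Rbl1, so the count rests on these sums. The median log2 fold change over all genes was 0.52 in edgeR, beside -0.12 over the 9 members. Over all genes the median was 0.27 in DESeq2, and the median of the shifts of single genes from edgeR to DESeq2 was -0.21. The log2 differences above with an SE are those of edgeR.

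The genes around the members were taken from lists of the pathway. Of the Cip/Kip inhibitors, all 3 were called lower in cycling than in promyelinating cells, beside 2.12% of all genes tested. Cdkn1a, which encodes p21, was at 1622 and 1813 CPM in promyelinating cells against 361 and 431 in other and 165 and 209.6 in cycling cells. It was higher in promyelinating than in other cells (2.20 ± 0.19 on the log2 scale, adjusted p = 0.000986) and lower in cycling than in promyelinating cells (-3.15 ± 0.20, adjusted p = 0.000102). Cdkn1c, which encodes p57, was at 1132 and 1546, 494 and 774, and 163 and 240.5 CPM in the same order, lower in cycling than in promyelinating (-2.68 ± 0.29, adjusted p = 0.00125) and than in other cells (-1.52 ± 0.28, adjusted p = 0.0495). Cdkn1b, which encodes p27, was at 137 and 142 CPM in promyelinating cells against 25.9 and 40.7 in cycling cells. The median log2 fold change of the 3 genes was -2.68 in cycling against promyelinating cells, beside 0.02 over all genes.

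Of the 4 INK4 genes, Cdkn2a had 0 reads in all classes and 3 were tested. Cdkn2d, which encodes p19 INK4d, was at 322 and 385 CPM in cycling cells, 113 and 105 CPM in other cells and 86.8 and 64.8 CPM in promyelinating cells. It was called higher in cycling cells against both (1.83 ± 0.26, edgeR adjusted p = 0.0156, and 2.27 ± 0.27, adjusted p = 0.00196). Of all genes tested, 0.895% and 3.83% were called higher in these comparisons. Cdkn2c, which encodes p18 INK4c, was at 90.96 and 122 CPM in cycling cells against 17.7 and 31.8 in other cells and did not pass (adjusted p = 0.198).

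**Figure D5:**
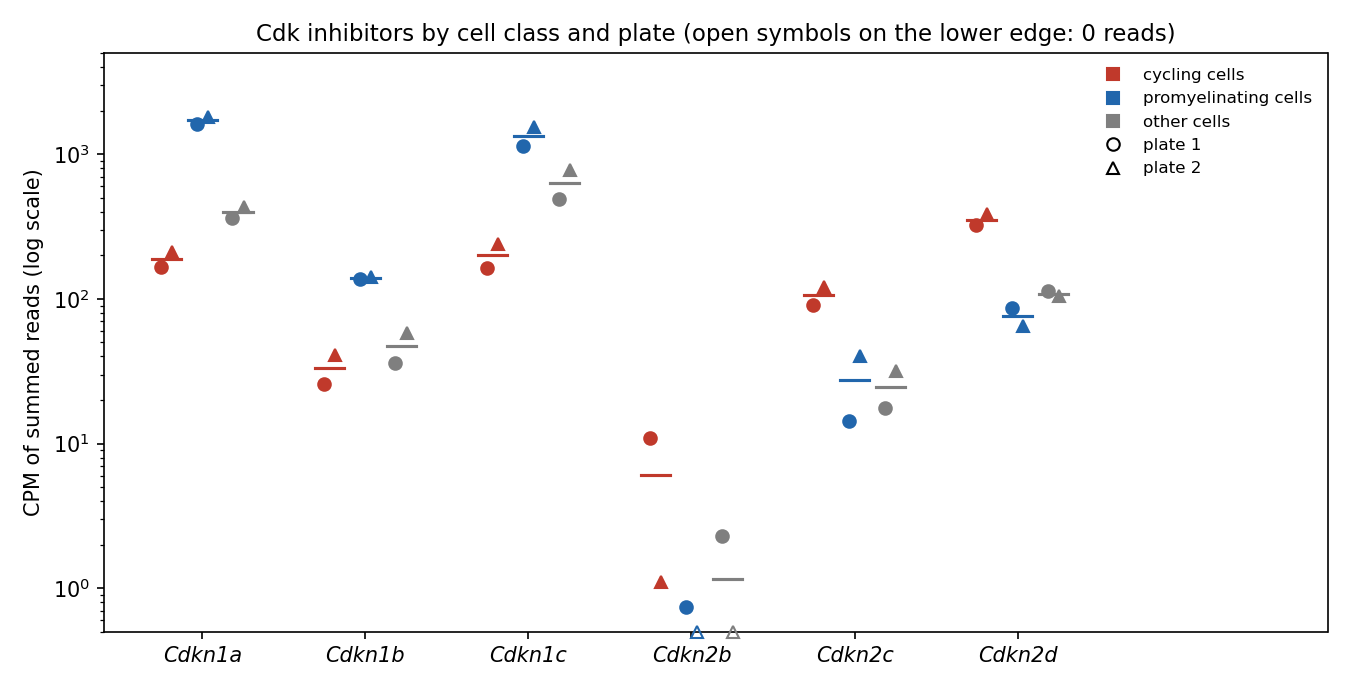
Level of Cdk inhibitors in CPM of the summed reads (log scale) by class and plate, with symbols as in the plot of member levels. Cdkn1a stands at 1622 and 1813 CPM in promyelinating cells, and Cdkn2d at 322 and 385 CPM in cycling cells. Open symbols on the lower edge are sums with 0 reads.

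Of the 10 E2F and DP factors, none was called in cycling or promyelinating against other cells. Between cycling and promyelinating cells 1 was called, E2f7, an E2F that represses (edgeR adjusted p = 0.0280), beside 5.95% of genes. It passed the filter on low counts through the cycling class, so the call supports nothing further. E2f7 was at 33.5 and 58.8 CPM in cycling cells, 1.39 and 0.0174 CPM in other cells and at 0 reads in promyelinating cells, where 3 reads on a plate would be 0.0575 or 0.0576 CPM. Plates did not overlap and were higher in cycling than in other cells for 6 of the 10 factors, beside 14.9% of all genes tested. The median log2 fold change of the list in that comparison was 0.86, beside -0.07 over all genes. E2f7 and E2f8 are among these 6 factors and enter the median, and both passed the filter through the cycling class. The count and the median therefore support nothing further.

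Of the 12 genes of DNA replication, known targets of E2F factors, 3 were called higher in cycling than in other cells. These were Mcm3, Pcna and Cdc45, beside 0.895% of all genes called higher. Against promyelinating cells 5 were called higher in cycling cells (Mcm3, Pcna, Rrm2, Tyms, Tk1), beside 3.83% of genes. None was called lower in cycling cells. The cycling class is itself set by proliferation genes, so these counts are no independent support. Mcm3, part of the replicative helicase, was at 106 and 107 CPM in cycling cells against 10.7 and 6.67 in other cells (3.74 ± 0.61, adjusted p = 0.0311). Cdc45, which activates that helicase, was at 89.0 and 42.2 CPM against 0.538 and 0.312. Rrm2, a subunit of ribonucleotide reductase, was at 74.7 and 143 CPM in cycling cells and lower in promyelinating (0.0384 and 0 CPM) than in other cells (0.788 and 5.60 CPM, adjusted p = 0.0387). The median log2 fold change of the list was 2.44 in cycling against other cells and -1.42 in promyelinating against other cells, beside -0.07 in both over all genes. Cdc6 passed the filter on low counts through the cycling class and enters these medians.

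Of the 7 genes of cyclins E, A and B, Cdk1 and Cdc25a, 4 were called higher in cycling than in other cells. These were Ccna2, Ccnb1, Ccnb2 and Cdk1, beside 0.895% of all genes called higher. Against promyelinating cells 5 were called higher, with Ccne1 as the fifth, beside 3.83% of genes. Mki67 and Top2a set the cycling class, so higher levels of other proliferation genes in it are no independent support. Ccnb1 passed the filter on low counts through the cycling class, so its calls support nothing further. Ccnb1, cyclin B1, was at 575 and 605 CPM in cycling cells against 0.138 and 1.47 in other cells, and Cdk1, its kinase, at 1185 and 1148 CPM against 14.9 and 18.2. Ccne1, cyclin E1, and Ccnb2, cyclin B2, were called lower in promyelinating than in other cells, beside 1.29% of genes. Ccne1 was at 0.0192 and 0.0960 CPM in promyelinating cells against 8.31 and 6.92 in other cells. None of the 3 genes of the Cdk-activating kinase, of the 6 of the DREAM and MuvB complex or of the 8 of cyclin D folding and turnover was called in any comparison. Of all genes tested, 1.01% were called in cycling against other, 1.79% in promyelinating against other and 5.95% in cycling against promyelinating cells. The medians of these 3 lists in cycling against other cells were -0.13, 0.99 and -0.33 on the log2 scale, beside -0.07 over all genes.

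Several members share exon bases with a gene on the opposite strand, and since the use of strand in counting is not stated, reads of such pairs cannot be told apart. Ccnd3 shared 361 exon bases with Bysl, Ccnd1 1100 with LTO1, Cdk4 641 with Tspan31 and Rbl2 693 with Aktip. Over the 621 cells, these were also the genes whose log2(CPM + 10) was most like that of the member among 7892 genes with a read in at least 10% of cells, with Pearson r of 0.69, 0.54, 0.46 and 0.36. Bysl was at 163 and 90.7 CPM in promyelinating, 94.1 and 78.0 in other and 64.2 and 58.2 in cycling cells, in the order of Ccnd3, and LTO1 was at 174 and 111 CPM in cycling against 319.6 and 211 in other cells. The part of shared reads in the values of these members was not tested. Rb1 shared 408 bases with Lpar6 (r = 0.47, 27 cells with reads of both) and 488 with Rcbtb2 (r = 0.08). Ccnd2, Cdk6 and Rbl2 also overlap opposite-strand genes that were not found by name in the counts. Ccnd2 shared 372 bases with Gm43126 and 368 with 9330179D12Rik, Cdk6 368 with Gm17590 and Rbl2 892 with Gm45464. The genes most like the remaining members were Ccnd1 for Ccnd2 (r = 0.40), Sostdc1 for Cdk6 (0.40), Spc25 and Cdk1 for Rbl1 (0.42 and 0.41), Rrm2 for Cdk2 (0.30) and Cad for Rb1 (0.17). These are descriptions over cells, which share plates and depth. Between Ccnd1 and Ccnd2 r was 0.41 within cycling, 0.47 within promyelinating and 0.36 within other cells, while Cdk4 and Cdk6 had r of -0.06 over all cells.

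The genes lie, in GRCm38 with GENCODE M21, at chr7:144929931-144939925 (Ccnd1), chr6:127125162-127152193 (Ccnd2), chr17:47505051-47599691 (Ccnd3), chr10:128697939-128705031 (Cdk2), chr10:127063534-127067920 (Cdk4), chr5:3341485-3531008 (Cdk6), chr14:73183673-73325822 (Rb1), chr2:157145893-157204534 (Rbl1) and chr8:91070057-91123844 (Rbl2), and values are over all their exons.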

How the data were processed

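The authors deposited 1 table of whole-number read counts for each gene in each well, not normalised. According to the submitters' processing notes, the authors used bcl2fastq, STAR 2.6.1c and featureCounts with GRCm38.p5. Strand use in counting is not given in the sources used here. Of 25700 IDs, 25587 matched a symbol, and 16 that shared a symbol kept their ID. Every column mapped to a well, and the title of the well gave its plate.

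The 9 members and all lists were chosen with earlier results of these data known, as were the tests. CPM was computed per cell for the classes and per sum of a class and plate for the levels. The 6 class sums entered 1 fit, and a second fit of 8 sums held the split of cycling cells, in edgeR 4.0.16 under R 4.3.3 (TMM, filterByExpr, robust glmQLFit and glmQLFTest), with p-values adjusted by Benjamini-Hochberg over all genes tested. The SE was taken from the F statistic, and intervals are 95% from the t distribution of the fit. A gene was called at an adjusted p under 0.05. A floor of 3 reads in a class sum is between 0.0174 and 0.0666 CPM, which covers counting error only, since reads without molecular identifiers are not independent molecules. Plates pair the sums, since the cells of a plate come from the same mice, and deviations of same-plate sums correlated with r of 0.0841, 0.0785 and 0.0716 over 8486 genes. Alternatives were DESeq2 1.42.0, limma 3.58.1 on log2(mean CPM + 1), the plate block, other filters, thresholds and depths, and each sum left out (for the split of cycling cells chosen after seeing the data). The steps were tested on simulated data. Wells under 1500 genes (122) were left out, and no doublet caller was run on wells that received 1 cell each. Other genes were named by a rule: of each pathway list the 2 called genes that changed most in either direction, and for each member the 2 genes most like it over cells. Genes beyond it (Cdkn1b, Cdkn2c, Cdkn2a and overlapping genes) were chosen after their values were seen. Tyms, Pcna and other called genes are named to complete counts of 5 or fewer. The Cre driver and some SC markers are not reported here.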

Additional observations from a re-analysis of the deposited data

Results flagged for a closer look

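The 122 wells with fewer than 1500 detected genes entered no comparison, and 7 of the 9 members had more than 3 reads in them, the limit that a count of 0 allows. Their reads came to 14991 for Ccnd1, 7055 for Ccnd2, 77 for Ccnd3, 4989 for Cdk4, 45780 for Cdk6, 394 for Rb1 and 112 for Rbl2. Cdk2 had 3 reads and Rbl1 had 0. Relative to the reads of these wells, Cdk6 stood at 2074 CPM on plate 1 and 2637 CPM on plate 2, above all 3 classes of kept cells on both plates. Cdk4 stood at 284 and 51.2 CPM, below all of them. These wells have a median of 339 detected genes on plate 1 and 123 on plate 2. The cause of these levels was not tested.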

How the results depend on the processing

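Cdk6 in promyelinating against other cells and Cdk6 and Ccnd2 in cycling against promyelinating cells were called in 15 of 15 alternatives. The members called in cycling against other cells went from 1 to 3 with DESeq2 and to 2 without a filter, with the plate as a replicate block and with limma, and the genes from 134 to 813 with DESeq2, 317 without a filter, 232 with limma and 258 thinned to 50000 reads. Leaving out 1 sum gave 0 to 1 members and 103 to 216 genes, with 206 and 216 without a promyelinating sum. In promyelinating against other cells DESeq2 called 2 members and 1026 genes, and 521 genes were called without a filter, 379 with limma and 424 thinned, with 157 to 313 when 1 sum was left out. In cycling against promyelinating cells DESeq2 and limma called 5 members and thinning 4, no filter 3, and the genes went to 2329, 1343, 1171 and 1290 with DESeq2, limma, thinning and no filter, with 2 to 3 members and 593 to 782 genes when 1 sum was left out. Within cycling cells DESeq2 called 2 members and 2362 genes, no filter 1 and 143, and a split at 20 CPM 3 genes, while leaving out 1 sum, an alternative chosen after seeing the data, gave 0 to 3 members and 0 to 2725 genes. Signs changed for values that had not passed. In cycling against other cells, leaving out 1 sum gave Cdk2 from -0.50 to 1.05, Cdk4 from -0.038 to 0.30 and Rbl2 from -0.49 to 0.78, and Rbl2 was -0.23 with limma and -2.26 with at least 2500 genes per cell. In promyelinating against other cells Ccnd2 went from -0.24 to 0.48 and Rb1 from -0.20 to 0.68. In cycling against promyelinating cells Cdk4 went from -0.26 to 0.053 and was 0.061 thinned, and Rbl2 was -1.12 with at least 2500 genes. Within cycling cells leaving out 1 sum gave Ccnd3 from -0.55 to 1.14, Cdk2 from -1.07 to 3.81, Cdk4 from -0.27 to 0.19 and Rb1 from -2.82 to 1.35, the plate block gave 0.075 for Cdk2, and a split at 100 CPM gave 0.039 for Cdk4. The plate block changed the call of Ccnd1 in cycling against other cells (adjusted p = 0.0374 in edgeR) and no other call of a member. The causes were not tested. Each class has 2 plates, and reads of the Rb family and Cdk2 were found in 46 to 157 of 621 cells.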
